A study of Sus scrofa with 20 samples.

Results

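Desmosomes and corneodesmosomes were followed through 7 genes in pig skin: DSP, PKP1, JUP, DSG1, DSC1, PERP and CDSN. They were taken from the deposited table as the rows whose Ensembl pig gene identifier carries one of these symbols, and all 7 were found among the 19280 genes of the table. Their identifiers are ENSSSCG00000001025 (DSP), ENSSSCG00000030694 (PKP1), ENSSSCG00000017428 (JUP), ENSSSCG00000020694 (DSG1), ENSSSCG00000003726 (DSC1), ENSSSCG00000038420 (PERP) and ENSSSCG00000030903 (CDSN). The study took punch biopsies of skin from 4 sites of 5 female wild-type Yorkshire pigs and sequenced polyadenylated RNA, to compare skin of the sole, the trunk, the top of the foot and the snout. Each pig gave 1 library per site, so each of the 20 libraries is a separate piece of tissue and sites can be compared within a pig. The pigs were 4, 8 and 7 months old in a first set of 12 library numbers, and 6 and 5 months old in a second set of 8. Age and set are confounded with the individual pig, and no treatment is named for any group.

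The site labels of the second set went against its expression values, which bears on every comparison below. The labels call the 4 sites volar, dorsal, snout and flank. In the first set they were used as given, with volar written here as sole and dorsal as upper foot. In the second set, both libraries labelled flank were read as sole, both labelled volar as snout, both labelled dorsal as flank and both labelled snout as upper foot. Over the 2000 most variable genes, centred within each set, this was the best match for 8 of the 8 libraries, with r from 0.777 to 0.872 and the next best site no higher than 0.749. With the junction genes left out the match was again as stated for 8 of 8. EN1, the transcription factor of ventral limb ectoderm, read 9.16 to 19.9 CPM, a count scaled to the size of its library, in the 5 sole libraries and 0.279 to 3.36 CPM in the others. HOXC10, a posterior body gene, was at 0 in the 5 snout libraries, and ALX1, a craniofacial gene, read 18.2 to 19.8 CPM there and at most 0.424 CPM elsewhere. The reassignment is a reading of the data and not a correction by the submitters, so results are also given within each set, where no library is combined across sets, and under the deposited labels.

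Desmosomes are button-like junctions that fasten neighbouring keratinocytes together and anchor their keratin filaments. Desmogleins and desmocollins, which are cadherins, span the gap between cells. On the inner side plakoglobin and the plakophilins bind the cadherin tails, and desmoplakin ties this plaque to the filaments. As keratinocytes move up into the cornified layer, desmosomes gain corneodesmosin on the outside and become corneodesmosomes, which proteases later cut so that dead cells can be shed. DSG1, DSC1 and CDSN belong mostly to the upper, differentiating layers, whereas DSG3 is a cadherin of the lower layers.

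Libraries held 34077821 to 66906420 counts, and a member gene had between 11946 and 1058524 counts in any library, so depth did not limit these values. Levels are CPM after TMM scaling, which corrects for a few very abundant genes taking up much of a library. The TMM factors were 0.739 to 0.812 in first-set sole libraries, 0.570 to 0.576 in second-set ones and 0.982 to 1.29 elsewhere. Scaling thus matters most for comparisons with sole and between the sets in sole. Marker levels of other cell types also differed between sites. The summed level of 9 fibroblast markers was 6591 to 39273 CPM in sole, 23459 to 52874 CPM in snout, 30213 to 85818 CPM in upper foot and 104348 to 235428 CPM in flank, and none of the 9 was at 0 throughout a site. The sum of 7 basal keratinocyte markers was 4103 to 5037 CPM in sole, 2085 to 3669.8 CPM in snout, 1861 to 2689 CPM in upper foot and 1359 to 2327 CPM in flank. The sum of 4 mucosal epithelium markers was 32334 to 47228 CPM in snout, 1478 to 22064 CPM in sole and at most 45.5 CPM in upper foot and flank. In sole it was nearly all KRT3, whereas KRT24 and TMPRSS11D were at a mean of 0.471 and 0.0399 CPM there and 13682 and 128 CPM in snout. The sum of 7 sweat gland markers was 499.7 to 5375 CPM in sole and at most 128 CPM elsewhere, with AQP5 the 1 of 7 higher in sole than in flank and 4 lower, and FOXI1 was at 0 in every sole library. Of 8 immune markers 8 were lower in sole than in flank, with sums of 235 to 653 CPM and 532 to 880.4 CPM. Between sole and flank 25% of all genes were higher and 29.1% lower. Bulk RNA cannot tell fewer cells of a type apart from less RNA per cell, and the part of these marker differences in the results below was not tested.

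Transcripts of all 7 genes were highest in sole skin, next in snout, and lowest in upper foot and flank. The fitted level in sole was 3.24-fold (DSC1) to 7.77-fold (CDSN) that in flank, and all 7 were higher in sole than in flank in 5 of 5 pigs, or 4 of 5 for DSC1 without TMM scaling. The share of all genes that were higher in every pig, or that did not overlap between sites, is not given here, so such statements only describe the members. Snout was at 1.58-fold (DSC1) to 2.42-fold (DSG1) the level of flank. Between upper foot and flank no member passed the test. Together the 7 genes took 4.04% to 4.52% of all counts in sole libraries, 2.44% to 3.60% in snout, 1.70% to 2.24% in upper foot and 0.928% to 2.05% in flank, as plain shares with no scaling. These ranges did not overlap between sole and snout or between snout and upper foot, and they did overlap between upper foot and flank.

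**Figure D1:**
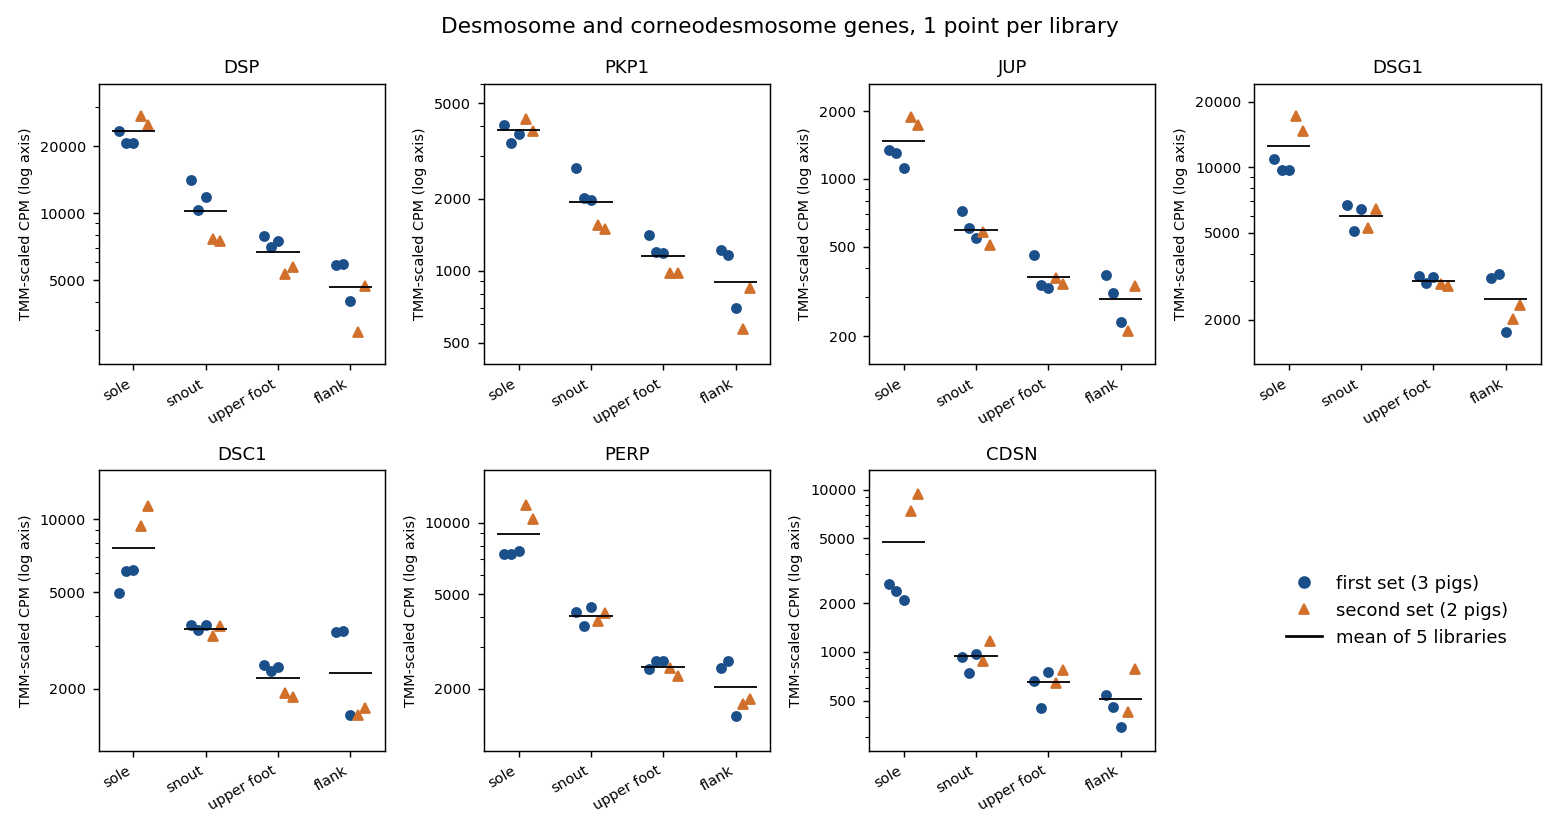
TMM-scaled CPM on a log axis for the 7 genes in the 20 libraries, by site; circles are the first set, triangles the second set under the expression match, and the line is the mean of 5 libraries. Sole libraries lie above those of the other sites for each gene, DSP in sole for example at 20593 to 27233 CPM. The second set lies above the first in sole for DSG1, DSC1, PERP, CDSN, JUP and DSP. Without TMM scaling, sole DSP was lower in the second set (14286 and 15530 CPM) than in the first (16520 to 17231 CPM). PERP and JUP in sole then overlapped between the sets. Sole and snout then overlapped for DSP, PKP1 and DSC1, and sole and flank for DSC1.

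In the following, the 5 values of a site are given in the same order of pigs: 4, 8 and 7 months in the first set, then 6 and 5 months in the second. Fitted log2 differences are given ± SE. DSP, desmoplakin, is the plakin that links the plaque to keratin filaments. In sole it read 23313, 20593 and 20602 CPM in the first set and 24797 and 27233 CPM in the second. Snout libraries gave 14078, 11751 and 10333 CPM in the first set and 7469 and 7613 CPM in the second. The lowest sole library was above the highest snout library, and the 2 second-set snout libraries were the lowest of the 5. Without TMM scaling sole and snout overlapped, at 14286 to 17231 CPM and 7921 to 15334 CPM. Upper foot DSP was 7868, 7527 and 7027 CPM in the first set and 5737 and 5318 CPM in the second. Flank DSP was 5821, 4023 and 5935 CPM in the first set and 4689 and 2936 CPM in the second. Upper foot and flank overlapped, although upper foot was the higher in 5 of 5 pigs. Means were 23308 ± 2842 CPM in sole, 10249 ± 2811 CPM in snout, 6695 ± 1117 CPM in upper foot and 4681 ± 1259.8 CPM in flank (SD, n = 5). The fitted log2 difference was 2.33 ± 0.15 (SE) between sole and flank, 5.02-fold (edgeR, adjusted p = 1.7e-08). Against upper foot sole was higher by 1.81 ± 0.15 (adjusted p = 2.12e-07), and against snout by 1.22 ± 0.14 (adjusted p = 1.43e-05).

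JUP encodes plakoglobin, the plaque protein shared by desmosomes and adherens junctions. Its sole values were 1344, 1118 and 1298 CPM in the first set and 1731 and 1894 CPM in the second. Snout values were 721, 544 and 604 CPM in the first set and 508 and 582 CPM in the second. No snout library reached 1118 CPM, the lowest sole value. In upper foot JUP read 459.8, 327 and 339 CPM in the first set and 341 and 361 CPM in the second. In flank it read 374, 232 and 311 CPM in the first set and 335 and 210.1 CPM in the second. The upper foot library of the 4-month pig stood apart from the other 4 of that site, which lay between 327 and 361 CPM. Sole exceeded flank by 2.31 ± 0.16 on the log2 scale, 4.98-fold (adjusted p = 3.72e-08), and snout by 1.30 ± 0.16 (adjusted p = 1.55e-05).

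PKP1, plakophilin 1, is the plakophilin of suprabasal epidermis and strengthens the binding of desmoplakin to the plaque. Sole libraries held 4067, 3728 and 3416 CPM in the first set and 3833 and 4316 CPM in the second. Its snout levels were 2686, 1980.0 and 2008 CPM in the first set and 1492 and 1546 CPM in the second. All sole libraries were above all snout libraries, and the sole values of the sets overlapped. Without TMM scaling sole and snout overlapped. The second-set sole libraries (2209 and 2461 CPM) were then below those of the first (2776 to 3006 CPM). Upper foot libraries gave 1411, 1186 and 1194 CPM in the first set and 976 and 973 CPM in the second. Flank libraries gave 1221, 694 and 1160.1 CPM in the first set and 849 and 568.4 CPM in the second. The log2 difference was 2.13 ± 0.16 between sole and flank, 4.37-fold (adjusted p = 8.14e-08), and 1.02 ± 0.16 between sole and snout (adjusted p = 1.38e-04).

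DSG1, desmoglein 1, is the main desmoglein of the upper epidermis and a target of autoantibodies in pemphigus foliaceus. In sole it read 10886, 9669 and 9747 CPM in the first set and 14690.4 and 17253 CPM in the second. In snout it read 6744, 6408 and 5085 CPM in the first set and 6419.5 and 5289 CPM in the second. All 5 sole libraries were above all 5 snout libraries, and the 2 second-set sole libraries were the highest of the 20. Upper foot gave the tightest group, with 3180.3, 3139 and 2934 CPM in the first set and 2860.2 and 2911 CPM in the second. Flank ranged more widely, with 3108, 1751 and 3231 CPM in the first set and 2342 and 2024 CPM in the second. Every snout library was above every upper foot and flank library. Sole was 4.90-fold flank, a log2 difference of 2.29 ± 0.16 (adjusted p = 3.1e-08), and 2.03-fold snout, a difference of 1.02 ± 0.15 (adjusted p = 9.71e-05). Snout was higher than flank by 1.27 ± 0.15 (adjusted p = 2.5e-05), and DSG1 had the highest estimate of the 7 in that comparison.

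DSC1, desmocollin 1, is the desmocollin of the uppermost living layers. Its sole levels were 4973, 6144 and 6105 CPM in the first set and 11349 and 9333 CPM in the second. Its snout levels were 3658, 3641 and 3483 CPM in the first set and 3625 and 3282 CPM in the second. Snout was even across pigs and sole was not. Upper foot levels were 2499, 2466 and 2371 CPM in the first set and 1844 and 1914 CPM in the second. Flank levels were 3411, 1549 and 3447 CPM in the first set and 1655 and 1558 CPM in the second. The flank libraries fell into a high pair, from the 4- and 7-month pigs, and a low group of the other 3. Mean DSC1 was 2324 ± 1009.8 CPM in flank and 2219 ± 315 CPM in upper foot (SD, n = 5), the only member whose mean was not lowest in flank, and without TMM scaling its mean too was lowest in flank. The sole to flank difference was 1.70 ± 0.17, 3.24-fold (adjusted p = 1.3e-06). It was 1.03 ± 0.22 in the first set and 2.69 ± 0.28 in the second, and the sets differed by -1.65 ± 0.35 (adjusted p = 0.0425). DSC1 was the only member to pass the test of a difference between sets, in 1 of 6 comparisons; 0.483% of all genes were lower in the first set by that test.

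PERP encodes a tetraspan membrane protein of desmosomes and a target of TP63. Sole libraries read 7392, 7611 and 7411 CPM in the first set and 10367 and 11829 CPM in the second. Snout libraries read 4213, 4404 and 3691 CPM in the first set and 4152 and 3849.6 CPM in the second. The first-set sole libraries lay between 7392 and 7611 CPM, below both of the second set, but without TMM scaling the sets overlapped in sole. In upper foot PERP was 2434, 2614 and 2615 CPM in the first set and 2272 and 2439 CPM in the second. In flank it was 2447, 1537 and 2616 CPM in the first set and 1814 and 1726 CPM in the second. The 7-month pig had as much PERP in flank as in upper foot, and the 8-month pig clearly less. The sole to flank difference was 2.12 ± 0.13, 4.34-fold (adjusted p = 1.03e-08), and the sole to snout difference 1.11 ± 0.12 (adjusted p = 8.59e-06). Across all 4 sites PERP ranked 102 and DSC1 ranked 772 of 15735 genes by adjusted p, the highest and lowest places of the 7, and 59.7% of genes passed that test.

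CDSN, corneodesmosin, is the glycoprotein added to desmosomes as they turn into corneodesmosomes. In sole it read 2628, 2104 and 2387 CPM in the first set and 9379 and 7424 CPM in the second. In snout it read 932, 972 and 744 CPM in the first set and 1174 and 875 CPM in the second. The 2 second-set sole libraries were far above the 3 of the first set, and all 5 were above every other library. Upper foot CDSN was 664, 758 and 449 CPM in the first set and 769.8 and 641 CPM in the second. Flank CDSN was 545, 344 and 460.1 CPM in the first set and 787 and 425 CPM in the second. Snout, upper foot and flank overlapped. Of the 7 genes CDSN had the largest estimated difference in each comparison with sole. Sole was 7.77-fold flank, 2.96 ± 0.20 on the log2 scale (adjusted p = 3.64e-08), 6.01-fold upper foot, 2.59 ± 0.20 (adjusted p = 1.48e-07), and 4.20-fold snout, 2.07 ± 0.20 (adjusted p = 2.44e-06). The sole to flank difference was 2.40 ± 0.26 in the first set and 3.79 ± 0.34 in the second, and the difference between sets of -1.39 ± 0.39 did not pass the test (adjusted p = 0.0915).

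Comparisons were made with edgeR's quasi-likelihood test across all 15735 genes tested, called at a Benjamini-Hochberg adjusted p below 0.05. All 7 members passed the filter on low counts. The members were chosen with earlier results of these data known, so the counts below describe these 7 genes and do not test desmosome genes as a class. For sole against flank 7 of 7 members were higher, where 25% of all genes were higher. Against upper foot 7 of 7 were higher in sole, where 23.8% of genes were, and against snout 7 of 7, where 18.6% of genes were. Snout was higher than flank for 7 of 7, against 16.1% of genes, and higher than upper foot for 6 of 7, against 14% of genes. The exception was CDSN, with 0.52 ± 0.19 (95% interval 0.11 to 0.92, adjusted p = 0.0651), which passed once the pig was entered as a block (adjusted p = 0.0248), under DESeq2 (adjusted p = 0.0437) and without either second-set flank library (adjusted p = 0.0394 and 0.0387). No member was lower in any of these 5 comparisons, where 29.1%, 25%, 22.2%, 13.3% and 8.95% of all genes were. The median log2 difference of the members was 2.29, 1.82, 1.11, 1.02 and 0.69 in these 5 comparisons in turn, while the median over all genes lay between -0.06 and 0.01.

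Between upper foot and flank 0 of 7 members passed, where 0.756% of all genes were higher and 1.19% lower. The estimates ran from -0.03 ± 0.17 for DSC1 (95% interval -0.39 to 0.33, adjusted p = 0.978) to 0.52 ± 0.14 for DSP (95% interval 0.22 to 0.82, adjusted p = 0.0811). The intervals of PERP (0.03 to 0.55) and PKP1 (0.03 to 0.70), like that of DSP, lay above 0 before adjustment over all genes, whereas those of DSG1, CDSN, DSC1 and JUP included 0. DSP passed under DESeq2, with 0.53 (adjusted p = 0.0057), under limma-voom, with 0.54 (adjusted p = 0.0466), with no scaling beyond the library total, with 0.65 (adjusted p = 0.0433), and without the second-set flank library of the 6-month pig, with 0.66 (adjusted p = 0.0213). Within pigs, upper foot was above flank in 5 of 5 for DSP, PKP1 and JUP, and without TMM scaling for PERP and CDSN too, while the values of the sites overlapped for all 7. With the pig as a block 0 of 7 passed. Whether DSP was called between these sites thus changed with the test, the scaling and 1 library.

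**Figure D2:**
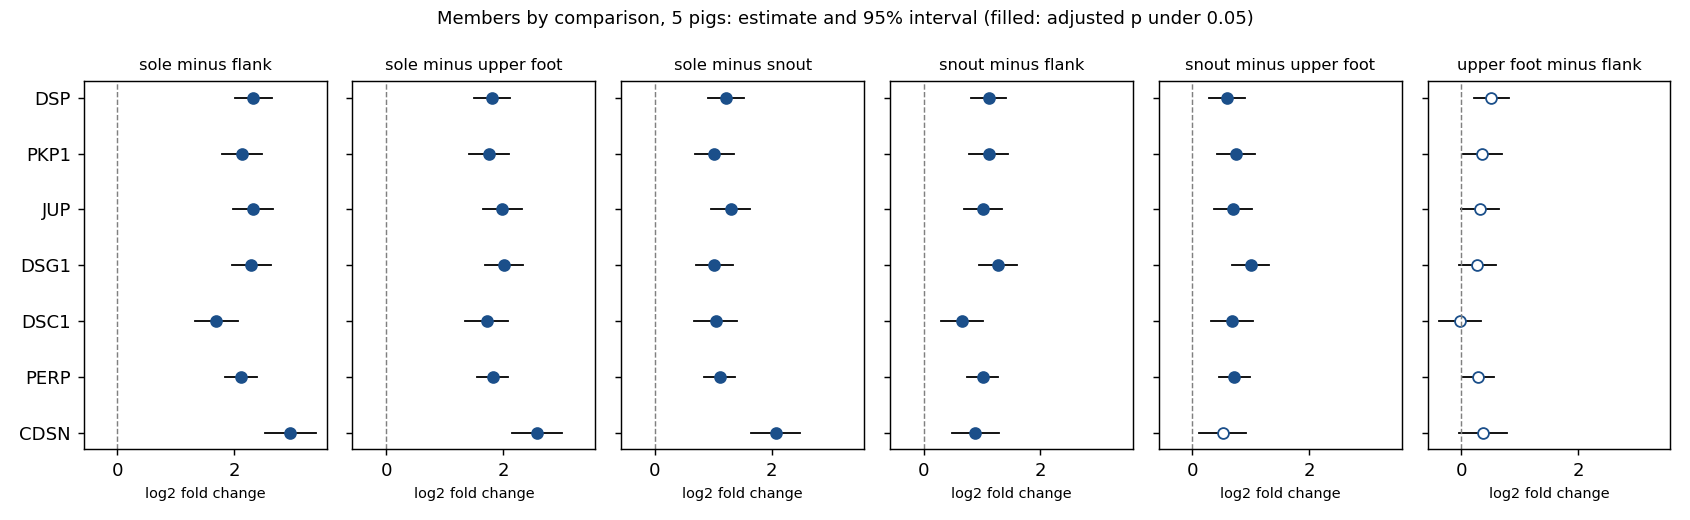
Fitted log2 fold change (dots) with its 95% interval (lines) for the 7 genes in the 6 site comparisons over 5 pigs; filled dots have an adjusted p below 0.05, and the dashed line is 0. All dots lie right of 0 except DSC1 in upper foot minus flank at -0.03, and CDSN lies farthest right in the 3 comparisons with sole, at 2.96, 2.59 and 2.07.

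Contrasts within a set were taken from the joint fit of all 20 libraries unless stated. In the first set, where the labels were used as deposited, 7 of 7 members were higher in sole than in flank, upper foot and snout, where 18.2%, 15.4% and 7.54% of genes were. In the second set 7 of 7 were again higher in each of these, where 20.9%, 19.6% and 16.6% of genes were. Sole to snout differences were 0.68 ± 0.22 (DSC1) to 1.43 ± 0.25 (CDSN) in the first set and 1.42 ± 0.25 (PKP1) to 3.04 ± 0.32 (CDSN) in the second. Snout against flank gave 6 of 7 in each set, where 9.88% and 6.53% of genes were higher. DSC1 was the one not called in the first (0.36 ± 0.22, adjusted p = 0.291) and CDSN in the second (0.76 ± 0.30, adjusted p = 0.128). Snout against upper foot gave 5 of 7 in the first set, where 7.02% of genes were higher, and only PERP and DSG1 in the second, where 4.75% were. With the first set fitted by itself, DSG1 and DSC1 lost the call for sole against snout (adjusted p = 0.0524 and 0.113).

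Sole against upper foot passed for JUP at 1.99 ± 0.16 (adjusted p = 1.83e-07), DSG1 at 2.01 ± 0.15 (1.27e-07), PERP at 1.82 ± 0.13 (4.76e-08), PKP1 at 1.76 ± 0.16 (5.7e-07) and DSC1 at 1.72 ± 0.17 (1.5e-06). Calls between sole and snout changed with the scaling and with the snout libraries left out. With no scaling beyond the library total, 4 of 7 members stayed higher in sole, where 4.02% of all genes were higher and 66.1% lower: CDSN by 1.43, JUP by 0.66, DSP by 0.57 and PERP by 0.47 on the log2 scale. DSC1 at 0.40, PKP1 at 0.38 and DSG1 at 0.37 did not pass (adjusted p = 0.0646, 0.0592 and 0.0504). DSP at 0.42 and DSC1 at 0.51 also no longer passed between snout and upper foot (adjusted p = 0.0696 and 0.0557). That setting moved the median of all genes by -0.64, and by -0.67 and -0.81 in sole against flank and upper foot, where all 7 still passed. In these comparisons 7.66% and 5.43% of all genes were then higher in sole and 64.6% and 71.2% lower. Of the genes it called between sole and flank 10.6% were higher in sole, against 46.2% under TMM. The share higher was 7.08% against 48.7% in sole minus upper foot and 5.74% against 45.5% in sole minus snout. It was 33.2% against 61.0% in snout minus upper foot and 71.5% against 38.8% in upper foot minus flank. Upper-quartile scaling moved the median between sole and upper foot by -0.11 and the share higher among called genes from 48.7% to 38.8%, and between snout and upper foot that share from 61.0% to 49.5%, with no change of call for a member. Skeletal muscle RNA was found in 3 snout libraries: the sum of 7 muscle markers was 3117 to 6630 CPM in those of the 7-month, 6-month and 5-month pigs and 2.55 to 13.3 CPM in all other libraries. Without those 3, which leaves no second-set snout, 3 of 7 members were higher in sole than in snout (PERP, CDSN and JUP), where 4.54% of genes were, and DSP was at 0.72 (adjusted p = 0.0617). Snout contrasts of this setting were therefore first-set contrasts, and differ from those over 5 pigs in the pigs used as well. In the first-set contrast with all libraries, 7 of 7 were higher in sole than in snout, and DSP was at 0.83 (adjusted p = 0.00693). DSC1 did not pass between snout and flank in this setting, at 0.37 (adjusted p = 0.416) beside 0.66 over 5 pigs. Its first-set contrast with all libraries did not pass either, at 0.36 (adjusted p = 0.291). Between snout and upper foot DSC1 was at 0.57 (adjusted p = 0.254) beside 0.68 over 5 pigs. Its first-set contrast with all libraries, at 0.56 (adjusted p = 0.125), did not pass either. JUP was at 0.75 (adjusted p = 0.0782) and did not pass. It was at 0.69 over 5 pigs and 0.73 in the first set (adjusted p = 0.0273), so its estimate was no smaller.

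The 7 genes varied together across the 20 libraries. Pearson r of log2 levels over pairs of members ran from 0.854 (CDSN and PKP1) to 0.993 (PERP and DSG1), with a median of 0.958 over 21 pairs. These points share sites, pigs and the scaling of each library. Within a site, some libraries were low or high for all members. In flank, the library of the 8-month pig was the lowest of the 3 first-set flank libraries for 7 of 7 genes, at -0.76 (DSC1) to -0.36 (CDSN) from their mean on the log2 scale. The second-set flank library of the 6-month pig was above that of the 5-month pig for all 7, by most for CDSN. The sum of 8 sebaceous and adipocyte markers was 14609 CPM in flank of the 8-month pig, beside 705 and 1461 CPM in the 4- and 7-month pigs. Its basal marker sum was 1381 CPM, beside 2327 and 2103 CPM. In the second set the sebaceous and adipocyte sum was 4452 CPM in the 6-month and 9052 CPM in the 5-month pig. The part of tissue make-up in these differences was not tested.

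Ratios of 2 desmosome genes within a library do not depend on its scaling, and 5 were followed. The exact two-sided sign-flip test over 5 pigs cannot give a p below 0.063, and over the 30 tests the lowest adjusted value was 0.125, so none passes and the values are given for their size and the number of pigs. DSG1 over DSG3, the cadherin of upper against that of lower layers, had a mean log2 ratio of 3.27 ± 0.44 in sole, 2.82 ± 0.10 in snout, 2.21 ± 0.37 in flank and 1.57 ± 0.25 in upper foot (SD, n = 5). The ratio was higher in sole than in upper foot in 5 of 5 pigs, by 1.70 ± 0.59, and higher in snout than in upper foot in 5 of 5, by 1.26 ± 0.24. It was lower in upper foot than in flank in 5 of 5 pigs, by -0.64 ± 0.29.

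CDSN over DSG1 compares the corneodesmosome glycoprotein with a desmosomal cadherin of the same layers. Its mean log2 ratio was -1.63 ± 0.67 in sole, -2.22 ± 0.31 in upper foot, -2.30 ± 0.46 in flank and -2.68 ± 0.16 in snout (SD, n = 5). Sole was above snout in 5 of 5 pigs, by 1.05 ± 0.53, and above flank in 5 of 5, by 0.67 ± 0.36. Snout was the lowest site on average, below upper foot in 5 of 5 pigs with a log2 difference of -0.46 ± 0.24. The second-set sole libraries carried the highest ratios, up to -0.65.

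PKP1 over PKP3, 2 epidermal plakophilins, was narrowly spread within sites. Its log2 ratio was 2.74 ± 0.13 in snout, 2.54 ± 0.07 in sole, 2.41 ± 0.09 in upper foot and 2.23 ± 0.06 in flank (SD, n = 5). Snout was above flank in 5 of 5 pigs by 0.51 ± 0.08, and sole above flank in 5 of 5 by 0.32 ± 0.10. DSP over JUP differed by 0.01 ± 0.16 between sole and flank. DSC1 over DSC2 had no common direction between these sites, with sole above flank in 1 pig and below it in 4, a mean difference of -0.17 ± 0.98.

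**Figure D3:**
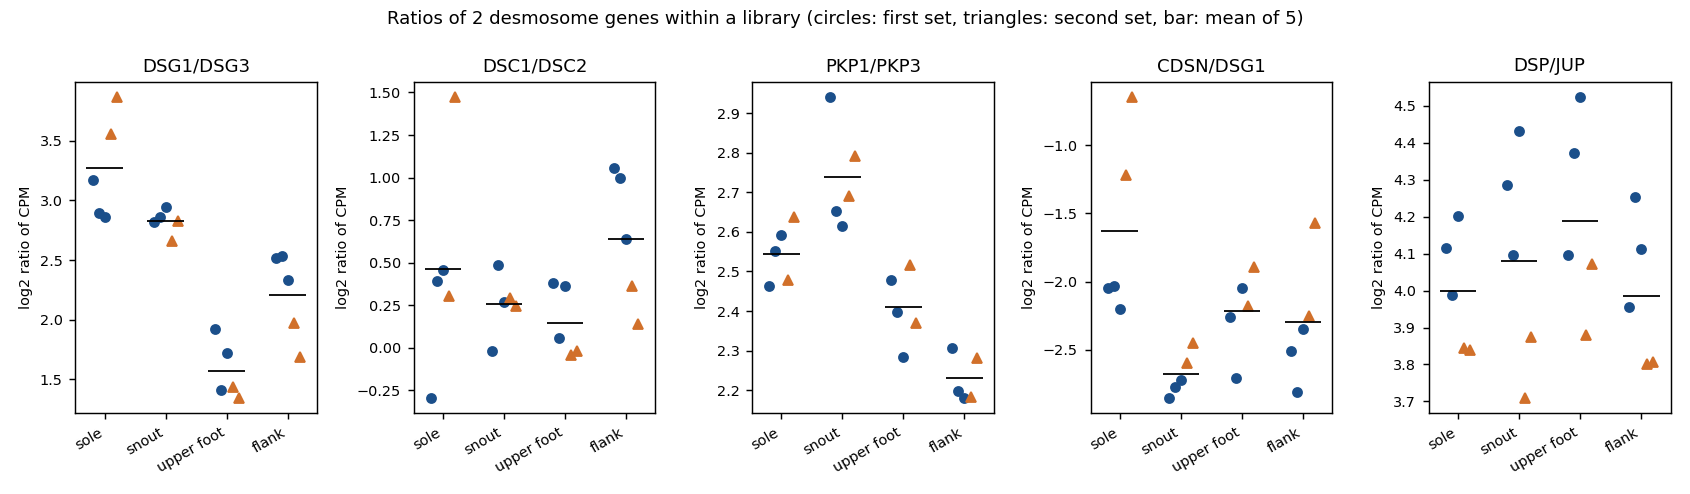
Log2 ratio of the CPM of 2 desmosome genes in each library, by site; circles are the first set, triangles the second, and lines the mean of 5 libraries. DSG1/DSG3 is lowest in upper foot at a mean of 1.57, PKP1/PKP3 is highest in snout at 2.74, and CDSN/DSG1 in sole is spread between the sets.

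The members were also set against basal keratinocytes. Each was expressed relative to the mean log2 level of 7 basal markers (TP63, ITGA6, ITGB4, COL17A1, LAMA3, LAMB3 and CDH3), which cancels library scaling. On this measure the mean difference between sole and flank was above 0 for 7 of 7 genes, from 0.70 ± 0.76 (DSC1) to 1.95 ± 0.67 (CDSN) on the log2 scale (SD, n = 5). Sole was above flank in 5 of 5 pigs for 6 of the genes and in 4 of 5 for DSC1, whose mean was smaller than its SD. Mean differences between snout and flank were 0.48 ± 0.51 (DSC1, 4 of 5 pigs) to 1.06 ± 0.30 (DSG1, 5 of 5 pigs). Between sole and snout the difference was 1.27 ± 0.81 for CDSN and 0.50 ± 0.33 for JUP, each in 5 of 5 pigs. For DSP it was 0.41 ± 0.42 in 3 of 5 pigs, and for PERP 0.30 ± 0.34 in 4 of 5. DSG1 gave 0.22 ± 0.42 in 3 of 5 pigs, DSC1 0.23 ± 0.37 in 3 of 5 and PKP1 0.22 ± 0.31 in 4 of 5. For 5 of the 7 genes sole and snout thus differed by about the SD between pigs or less, relative to basal markers. Upper foot and flank were near one another, from -0.33 ± 0.35 (DSC1) to 0.19 ± 0.16 (DSP). These values are descriptions, and the part that more or fewer keratinocytes play in the site differences was not tested further.

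**Figure D4:**
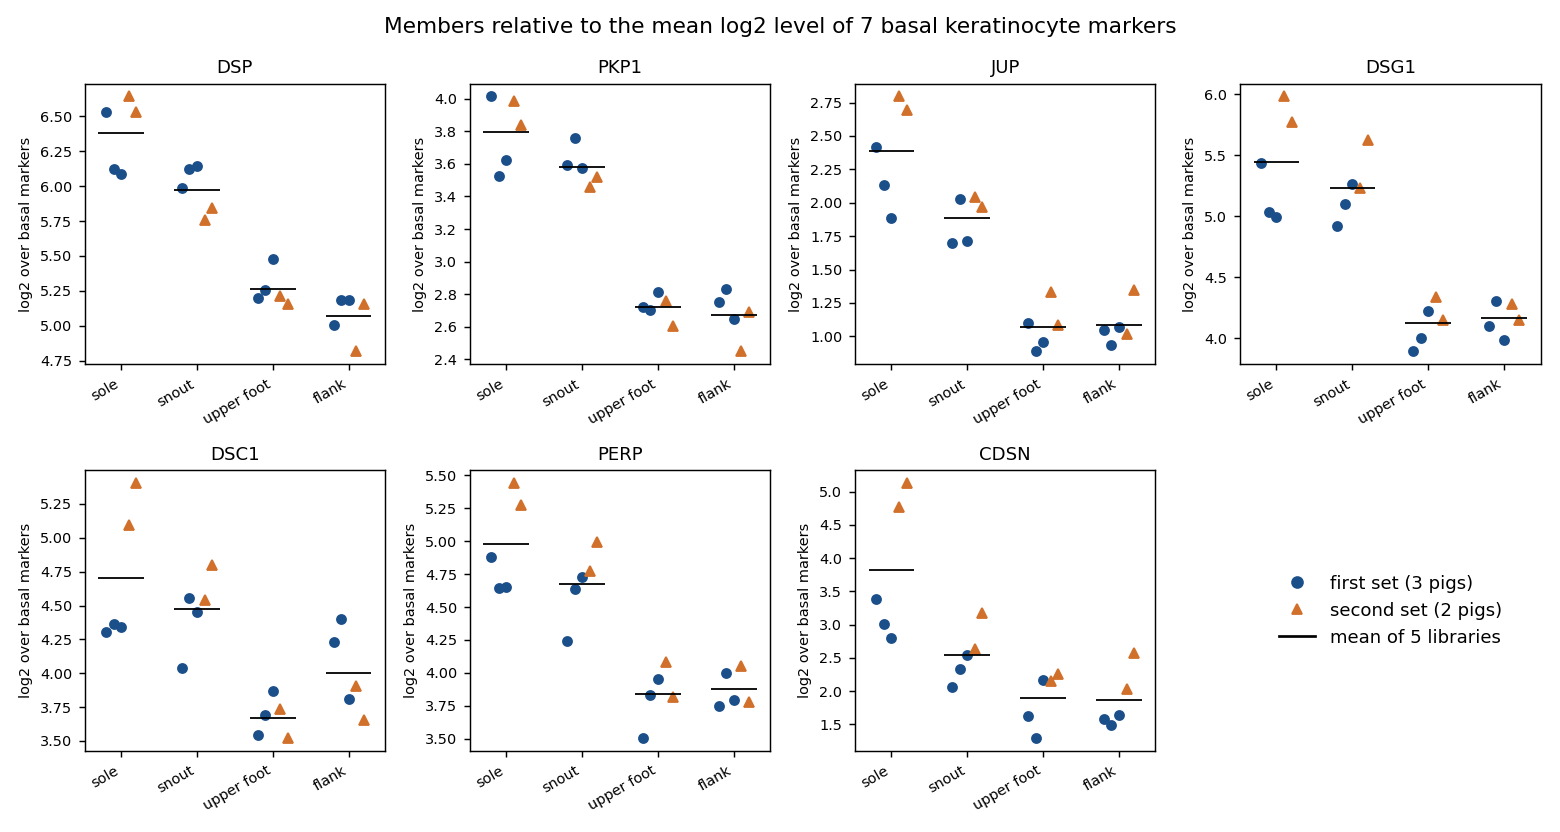
Log2 level of each of the 7 genes minus the mean log2 level of 7 basal keratinocyte markers in the same library, by site; circles are the first set, triangles the second, and lines the mean of 5 libraries. Sole and snout form an upper level and upper foot and flank a lower one for most genes, and CDSN is the gene whose sole mean is farthest above snout, by 1.27.

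Other desmosome genes went in both directions. The list of further cadherins held DSG2, DSG3, DSG4 and DSC2 in the table; DSC3 was not analysed here. Between sole and flank 3 of the 4 were higher and 1 was lower, with a median of 1.14, beside -0.06 for all genes. Of all genes 25% were higher and 29.1% lower. With no scaling 2 of the 4 were higher and 1 lower, where 7.66% of all genes were higher and 64.6% lower. DSC2, a desmocollin of many epithelia, read 4093 to 7565 CPM with a median of 4650.4 CPM in sole and 993 to 1729 CPM with a median of 1501 CPM in flank, with no overlap. Its log2 difference was 1.92 ± 0.19 (adjusted p = 1.08e-06), and 0.84 ± 0.19 between sole and snout (adjusted p = 0.00233), which fell to 0.20 (adjusted p = 0.384) with no scaling. DSG3, the target of autoantibodies in pemphigus vulgaris, read 1009 to 1464 CPM in sole, 698 to 955 CPM in snout, 838 to 1125 CPM in upper foot and 346 to 727 CPM in flank. Sole exceeded flank by 1.25 ± 0.15 (adjusted p = 8.64e-06). DSG3 also passed between upper foot and flank, with 0.93 ± 0.15 (adjusted p = 0.00598), and did not pass between sole and upper foot, with 0.31 ± 0.15 (adjusted p = 0.1). With no scaling DSG3 was lower in sole than in upper foot, at -0.50 (adjusted p = 0.0168).

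DSG4, the desmoglein of the hair shaft, ran the other way. It read 0.428 to 4.18 CPM with a median of 1.44 CPM in sole and 5.49 to 21.3 CPM with a median of 15.2 CPM in snout. In flank it read 23.9 to 322 CPM with a median of 127 CPM, and in upper foot 111 to 317 CPM with a median of 285 CPM. All sole libraries were below all snout libraries, which in turn were below all flank and upper foot libraries. The log2 difference was -6.30 ± 0.67 between sole and flank (adjusted p = 2.48e-06) and -3.33 ± 0.57 between snout and flank (adjusted p = 6.21e-04). The sum of 9 hair shaft and root sheath markers moved with it, at 2.35 to 31.5 CPM in sole, 313 to 1157 CPM in snout, 492 to 17317 CPM in flank and 5321 to 13812 CPM in upper foot, and KRT39 and TCHHL1 were at 0 in every sole library. The part of hair follicles in the DSG4 difference was not tested. DSG2, a desmoglein of simple epithelia, was low everywhere, with a highest value of 3.53 CPM, and was higher in sole than in flank by 1.04 ± 0.38 (adjusted p = 0.031), which did not hold with no scaling (0.37, adjusted p = 0.407).

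Of 4 further plaque proteins, 2 were higher in sole than in flank and none was lower, with a median of 0.93, where 25% of all genes were higher and 29.1% lower. PKP3, a plakophilin of all epidermal layers, was at 582 to 774 CPM in sole and 125 to 252 CPM in flank and higher by 1.83 ± 0.14 (adjusted p = 8.88e-08). PPL, periplakin, a plakin of desmosomes and the cornified envelope, was higher by 1.60 ± 0.12 over 5 pigs (adjusted p = 9.42e-08). The sets were unlike for PPL. Sole read 450 to 520 CPM and flank 210 to 296 CPM in the first set, beside 868 and 1087 CPM and 158 and 183 CPM in the second. EVPL, envoplakin, its partner, was at 0.27 ± 0.17 between sole and flank (adjusted p = 0.211) and was lower in sole than in snout, with a log2 difference of -0.60 ± 0.17 (adjusted p = 0.0126). Snout was the site with the highest mean EVPL, at 108 to 219.9 CPM, and exceeded flank by 0.86 ± 0.17 (adjusted p = 0.00186). PKP2, the plakophilin of heart and simple epithelia, was at 0.01 ± 0.23 between sole and flank (adjusted p = 0.978). With no scaling both PKP2 (-0.67) and EVPL (-0.42) were lower in sole than in flank (adjusted p = 0.0259 and 0.0451).

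**Figure D5:**
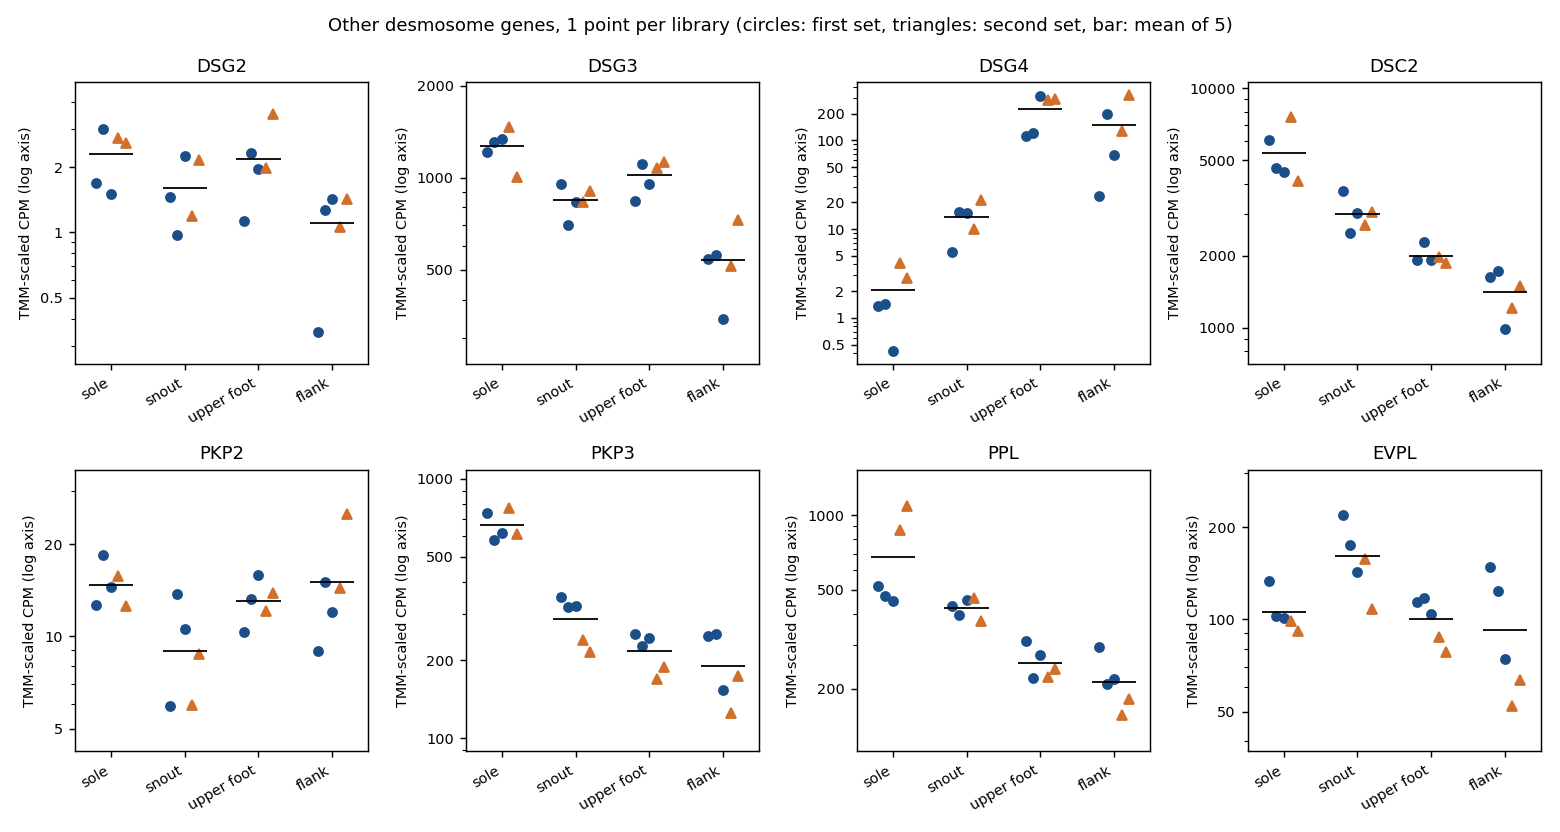
TMM-scaled CPM on a log axis for 8 desmosome genes outside the 7, by site; circles are the first set, triangles the second, and lines the mean of 5 libraries. By mean, DSC2, PKP3 and PPL are highest in sole and EVPL is highest in snout. PPL in the 8-month pig is at 450 CPM in sole and 455 CPM in snout. Its highest sole values, 1087 and 868 CPM, are those of the second set. DSG4 lies at 0.428 to 4.18 CPM in sole and at 111 to 317 CPM in upper foot.

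Genes that cut corneodesmosomes, and those that hold the proteases in check, were higher in sole along with CDSN, DSG1 and DSC1, which are the proteins cut. Of 11 proteases and inhibitors tested, 10 were higher and 1 was lower in sole than in flank, with a median of 3.54. Against upper foot the counts were again 10 and 1, and against snout 10 and 0, with medians of 2.75 and 1.65. Of all genes 25%, 23.8% and 18.6% were higher in these comparisons in turn, and 29.1%, 25% and 22.2% lower. With no scaling 8, 8 and 7 were higher and 1, 1 and 0 lower, where 7.66%, 5.43% and 4.02% of all genes were higher and 64.6%, 71.2% and 66.1% lower. SERPINB12, a serine protease inhibitor, had the smallest adjusted p, with 5.19 ± 0.27 between sole and flank (adjusted p = 2.72e-09), from a mean of 108 ± 37.1 CPM in flank to 4147 ± 1741 CPM in sole (SD, n = 5). The kallikreins KLK8 and KLK7 were higher by 5.99 ± 0.49 and 3.77 ± 0.34 (adjusted p = 1.75e-07 and 4.17e-07). SPINK9, a kallikrein inhibitor known from palms and soles, was higher in sole by 4.57 ± 0.42 than in flank (adjusted p = 6.11e-07), and was at -0.19 ± 0.37 between snout and flank (adjusted p = 0.731). KLK5, the trypsin-like kallikrein that activates KLK7, had the same shape, with 3.54 ± 0.34 between sole and flank (adjusted p = 8.06e-07) and 0.04 ± 0.32 between snout and flank (adjusted p = 0.94). SPINK5, which encodes the inhibitor LEKTI, was higher in both sole (2.63 ± 0.25) and snout (1.93 ± 0.25) than in flank (adjusted p = 8.04e-07 and 5.5e-05). CST6, the cystatin that inhibits cathepsins, was the one lower in sole, with a log2 difference of -1.29 ± 0.39 (adjusted p = 0.0111).

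Lists of adherens junction, tight junction and hemidesmosome genes had lower medians. Of 9 adherens junction genes 5 were higher and 1 lower in sole than in flank, with a median of 0.67, and with no scaling 2 were higher and 3 lower. Of all genes 25% were higher and 29.1% lower, or 7.66% and 64.6% with no scaling, which holds for each list here. AFDN, afadin, was higher by 1.16 ± 0.11 (adjusted p = 5.75e-07) and CDH1, E-cadherin, by 0.73 ± 0.15 (adjusted p = 6.89e-04), while CTNNB1, beta-catenin, which binds cadherin tails as plakoglobin does, was at 0.14 ± 0.09 (adjusted p = 0.203). For tight junctions 6 of 10 genes were higher and 2 lower, with a median of 0.49, or 2 and 3 with no scaling. Of 6 hemidesmosome genes 4 were higher and none lower, with a median of 0.94, or 3 and 2 with no scaling. Cornified envelope genes were higher for 7 of 7, with and without scaling, with a median of 2.90. These 7 come from a list of 15 symbols, and FLG and LOR are among those not analysed here. The members, at a median of 2.29, lay between these lists, and no test of one list against another was made. For gap junctions only sums of 4 genes are given. They were 3772 to 6522 CPM in sole, 1824 to 3074 CPM in upper foot, 1192 to 2893 CPM in flank and 393 to 600 CPM in snout, the lowest site.

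The genes whose levels followed a member most closely over the 20 libraries were found among 9848 genes with a symbol and a mean of at least 5 CPM, by Pearson r of log2 levels. For DSP they were PPP5C (0.981), PKP3 (0.981) and FLAD1 (0.978), and for JUP PPP5C (0.986), KIF13A (0.980) and B4GALNT3 (0.979). PERP shared KIF13A (0.980) and PPP5C (0.980) and added SERPINB7 (0.979). PKP1 was followed by RANGAP1 (0.979), MINK1 (0.979) and PKP3 (0.977). DSG1 was nearest to TGM5 (0.983), a transglutaminase of the cornified envelope, HECA (0.983) and MTFR1 (0.982). CDSN was nearest to SMAP1 (0.985), CAMK1D (0.983) and CHMP4C (0.983). DSC1 was nearest to APPL2 (0.982), CERS3 (0.977), a ceramide synthase of the skin barrier, and USP15 (0.973). These values are descriptions over libraries that share sites, pigs and scaling.

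Under the deposited labels for all 20 libraries, edgeR called 0 of 15275 genes in any of the 6 comparisons, with 702 to 3877 genes at an unadjusted p below 0.05. For the members, volar against flank gave 0.23 ± 0.52 for DSP (adjusted p = 0.907) and -0.99 ± 0.71 for CDSN (adjusted p = 0.614). Volar against dorsal gave the largest differences in favour of volar, from 1.19 ± 0.42 (DSC1, adjusted p = 0.104) to 1.62 ± 0.51 (DSG1, adjusted p = 0.0944), and none passed. With labels as deposited, the libraries with the highest CDSN, at 9379 and 7424 CPM, are both called flank, and the labelled flank group spans 344 to 9379 CPM.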

How the data were processed

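RNA of 4 mm skin biopsies was made into stranded mRNA libraries, per the labels' protocols. The authors deposited estimated counts for each Ensembl gene and library, which Salmon produced per the submitters' processing notes. Neither the Salmon version nor the genome build or annotation is given in the sources used here, so no positions are printed. Since 42.2% of the deposited estimated counts were not whole (tolerance 0.000000001), all were rounded to integers. Of 19280 genes 14821 had a symbol in the supplied tables and 4459 had none. Salmon shares reads among similar transcripts, which can move counts between related desmogleins, desmocollins or kallikreins.

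The 20 libraries entered 1 fit as 8 groups, the 4 labelled sites in each set of library numbers, with 12 residual degrees of freedom. R 4.3.3 and edgeR 4.0.16 (TMM, filterByExpr with a minimum count of 10 and a minimum total of 15, quasi-likelihood F test, Benjamini-Hochberg over 15735 genes) gave each contrast as the mean of the within-set contrasts weighted by pigs, with its SE and 95% interval. Site names in the second set rest on the expression match, so contrasts over 5 pigs assume it. Alternatives used DESeq2 1.42.0, limma 3.58.1, other scalings and filters, and left out libraries. Gene ratios used log2(CPM + 0.5) and exact sign-flip tests. Basal-marker values used the same CPM. Of the planned basal markers, KRT5 and KRT14 were not analysed here and 1 more is not reported, so these values rest on 7 markers.

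Libraries of 1 pig are paired by animal. Their deviations from group means correlated at a median r of 0.211 over 18 pairs in the first set (-0.00482 to 0.433) and 0.306 over 12 pairs in the second (0.114 to 0.434). On simulated data for sole against flank with 15566 genes, 69 of 100 genes changed 2-fold and 96 of 100 changed 4-fold were recovered, with 4 false calls. The simulation held all other genes equal between sites, raised and lowered the changed genes in equal number, and had no pig effect. It leaves out the large shift in composition of the sole libraries, so its false calls do not measure the error rate of the comparisons here.

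The members and gene lists were chosen with earlier results of these data known. Text names all members and, per list, up to 4 genes with the smallest adjusted p for sole against flank, or a gene on which a result turns. CDH1, CTNNB1, KLK5, SPINK5 and CST6 were named after their values were seen. For likeness, the 3 genes of highest r per member are named. The ratio of DSC1 to DSC3 was planned, and DSC2 was used in place of DSC3, which is not analysed here.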

Additional observations from a re-analysis of the deposited data

Results flagged for a closer look

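JUP in upper foot of the 4-month pig, in a library labelled dorsal, read 459.8 CPM and stood apart from the other 4 upper foot libraries by Dixon's criterion (critical value 0.71 for 5 libraries). This was 1 of 28 groups of 5 libraries examined, and chance alone would mark about 1 group in 20.

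The sole to flank difference of DSC1 was smaller in the first set than in the second by the fitted test, with a log2 difference of -1.65 between sets. It was 1 of 42 combinations of a member and a comparison examined for a difference between sets. For sole against flank the estimate was smaller in the first set for all 7 members, by -1.65 to -0.66. In flank, 2 of the 3 first-set libraries held more DSC1 than the second-set ones. In sole, all first-set libraries (4973 to 6144 CPM) held less DSC1 than the second-set ones (9333 and 11349 CPM). The part of each site in the difference was not tested.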

How the results depend on the processing

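RLE and upper-quartile scaling, both other count filters, and leaving out 16 of the 20 most abundant genes (the other 4 are members and were kept) changed no call in the 42 combinations of member and comparison. With the pig as replicate block, CDSN between snout and upper foot came to pass (0.52, adjusted p = 0.0248) and no other call changed. Requiring an absolute log2 fold change of at least 1 left 0 members higher in snout than in upper foot. It also removed CDSN (0.89) and DSC1 (0.66) between snout and flank. For upper foot over flank, DESeq2 and limma-voom each called 1 member, as did no scaling beyond the library total, and leaving out 1 library gave 0 to 1. With no scaling 4 members, and without the snout libraries with muscle counts 3, were higher in sole than in snout. The latter setting rests on first-set snout contrasts alone. The second set fitted by itself called 3 members higher in snout than in upper foot, where 991 of 15280 genes were. The second-set contrast of the joint fit called 2. Under deposited labels the count was 0 in all 6 comparisons.

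DSC1 between upper foot and flank, not called in any setting, changed sign with limma-voom (0.024), the second set alone (0.21), no scaling (0.11) and without 1 first-set flank library (0.06 without replicate 1, 0.072 without replicate 3, and -0.19 to 0.072 over all 20 removals). DSC1 also lost its calls between snout and both flank and upper foot with the set as a term (0.61 beside 0.66 and 0.68 beside 0.68, adjusted p = 0.0812 and 0.0672). The causes were not tested. Other pseudocounts changed no ratio. Depth was not limiting for the members, whose lowest count was 11946; 5 pigs limit the ratio tests to a p of 0.063. The settings of no scaling and of leaving out the muscle-bearing libraries were chosen after seeing the data.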
